A study of Mus musculus with 12 samples.

Results

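Wnt ligands, their receptors and their secreted inhibitors were described across cell types of a mouse tracheal transplant study. The 42 genes are all those of the 31053 in the deposited tables whose symbol names a Wnt ligand, a Frizzled receptor (Fzd), a secreted Frizzled-related protein (Sfrp) or a Dickkopf protein (Dkk), together with Wif1, Frzb, Lrp5, Lrp6 and Axin2. They comprise 19 ligands, 12 receptors, 10 secreted inhibitors and Axin2, an intracellular gene. Cells came from 3 sources, tracheal allograft, native trachea and spleen. Single-cell 3′ RNA sequencing was deposited for 4 samples of each source. Per the labels, cells of both tracheal sources are mesenchymal progenitors and spleen cells are splenocytes. No strain, sex, age, time after transplantation, treatment or sort is given. Each source was deposited as 1 matrix in which cells carry no sample mark, so each was used as 1 library. No difference between libraries could be tested, the spread between animals is unknown, and every interval below covers counting error only.

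Wnt ligands are secreted, lipid-bearing proteins that bind Frizzled receptors on a nearby cell. With the co-receptors Lrp5 and Lrp6 they stabilise beta-catenin, which acts with TCF and LEF factors on target genes such as Axin2, while ligands such as Wnt5a and Wnt11 often act without beta-catenin. Sfrp proteins, Frzb and Wif1 bind the ligands outside the cell, and most Dickkopf proteins bind the co-receptors. In airway and lung, fibroblasts, cartilage and epithelium exchange these signals during development and repair.

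After filtering, 3864 allograft, 4115 native and 4570 spleen cells were used, with medians of 4965, 6526 and 4428.5 unique molecular identifiers (UMIs, 1 per captured transcript end) per cell. Cells were clustered with the Wnt genes left out of the clustering and named from marker genes. The mesenchymal class, 1 fibroblast-like cluster, held 31 allograft and 928 native cells. The chondrocyte class held 68 and 14, the phagocyte class (macrophages and monocytes) 1803, 1563 and 413 in the order allograft, native and spleen, and the lymphocyte class 628, 254 and 3440. Leukocyte classes therefore made up most of both tracheal libraries, whatever their label, and no spleen cell fell in the mesenchymal or chondrocyte class. Native mesenchymal cells carried all 8 markers of lung-type fibroblasts, at 2046 CPM in sum (CPM, UMIs of a gene scaled to 1000000 UMIs of the class in the library), and the native library also had 29 epithelial cells led by surfactant genes such as Sftpc. Allograft mesenchymal cells carried 2 of those 8 markers, at 9.60 CPM. The tracheal libraries shared 4 cell barcodes, and each shared 4 (allograft) or 7 (native) with the spleen.

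Together the Wnt genes gave 5289 UMIs in the allograft, 15104 in the native and 1716 in the spleen library. Secreted inhibitors gave 2736, 7330 and 28 of these, ligands 558, 3106 and 416, receptors 1944, 4484 and 1161, and Axin2 51, 184 and 111. By role, inhibitors thus gave the most Wnt UMIs in both tracheal libraries and were nearly missing from the spleen. Single genes weighed on this: Dkk3 gave 3564 of the native and Wif1 1739 of the allograft inhibitor UMIs. Of the 42 genes, 32 had 20 or more UMIs in all. Another 5, all ligands, had fewer: Wnt3 17, Wnt8b 13, Wnt1 12, Wnt2b 5 and Wnt9b 1. Wnt3a, Wnt7a, Wnt8a, Dkk1 and Dkk4 had 0. The heat map by class shows that single genes stood out in single classes.

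**Figure D1:**
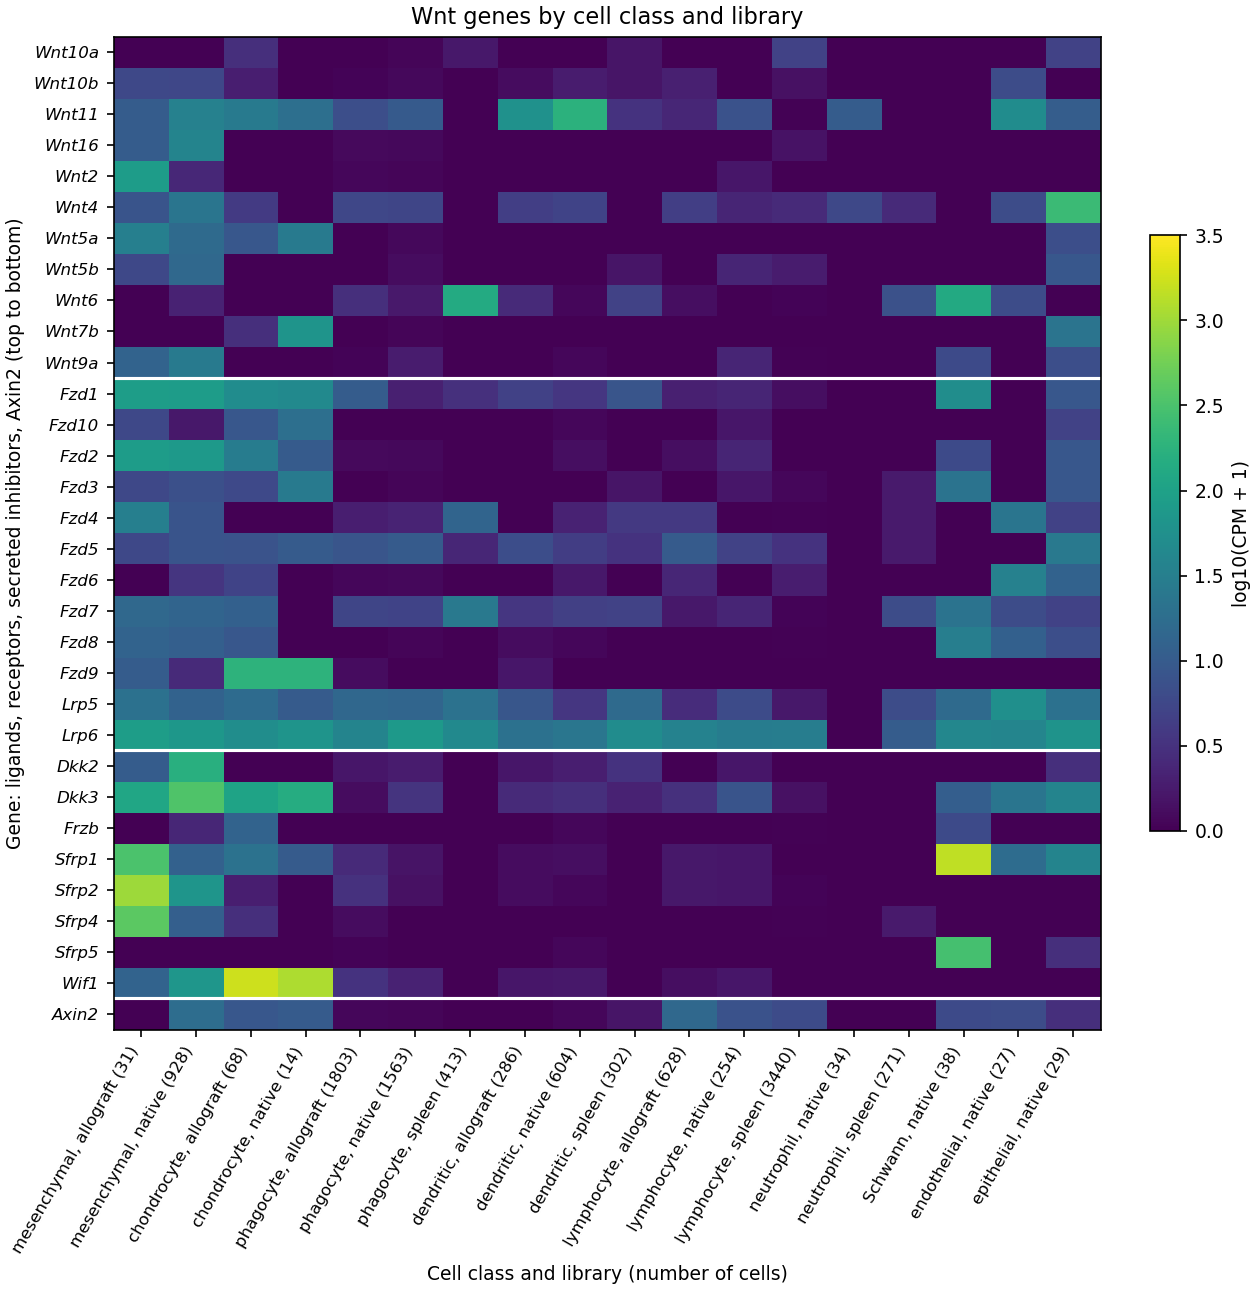
Level of the 32 Wnt genes with 20 or more UMIs (rows, grouped by role) in each cell class and library (columns, with the number of cells), as log10(CPM + 1). Sfrp and Dkk genes are bright in mesenchymal columns, Wif1 and Fzd9 in chondrocytes, Wnt11 in tracheal dendritic cells, Wnt6 in spleen phagocytes, Wnt6, Sfrp1 and Sfrp5 in the 38 Schwann-like cells and Wnt4 in epithelial cells.

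The stretches just before the start of 4 of these genes are shown because the class patterns below turn on them: Dkk2 and Sfrp2, which differed in opposite directions between mesenchymal cells of the 2 tracheal libraries, Wnt11 of dendritic cells and Wnt6 of spleen monocytes. Each is 100 bases, 5′ to 3′ on the plus strand of GRCm38.p6, from RefSeq, and ends at the base before the annotated start. Capitals mark matches, on either strand, to the TCF/LEF cores CTTTGA and CTTTGT, the TATA box TATAAA and the CCAAT box CCAAT, none of which overlaps another here. The windows are chr3:132085192-132085291 for Dkk2, chr3:83766221-83766320 for Sfrp2, chr7:98835012-98835111 for Wnt11 (the first of its 2 entries) and chr1:74771792-74771891 for Wnt6.
Dkk2: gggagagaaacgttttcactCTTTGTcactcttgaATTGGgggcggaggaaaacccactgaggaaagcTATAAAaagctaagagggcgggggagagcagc
Sfrp2: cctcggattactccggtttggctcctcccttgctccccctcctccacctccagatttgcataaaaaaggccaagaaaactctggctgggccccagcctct
Wnt11: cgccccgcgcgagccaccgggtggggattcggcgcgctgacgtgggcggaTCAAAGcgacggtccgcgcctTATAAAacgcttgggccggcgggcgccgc
Wnt6: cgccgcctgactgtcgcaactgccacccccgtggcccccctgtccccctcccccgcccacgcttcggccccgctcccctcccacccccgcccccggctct

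The Dkk2 stretch held CTTTGT starting 80 bases, CCAAT (as ATTGG) 65 bases and TATAAA 32 bases before the start. Wnt11 held CTTTGA (as TCAAAG) at 50 and TATAAA at 29 bases. The Sfrp2 and Wnt6 stretches held none of these letters. Over the 250 bases before the start, and none after it, 8 of 31 promoters of the Wnt genes (25.8%, from 28 genes with an entry) had a TCF/LEF core, against 27.6% of all 32851 promoters. TATAAA was in 5 (16.1%, against 12.4%) and CCAAT in 10 (32.3%, against 33.8%). These shares are descriptions of letters in a window and say nothing of a factor's binding.

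In mesenchymal cells the allograft library had far more transcript of 3 Sfrp inhibitors and less of Dkk2, Dkk3 and Wif1 than the native library. The intervals of the 2 libraries did not overlap for any of these 6 genes. Of the 42 genes, 20 had enough UMIs to compare (20 or more summed, and 3 or more expected in the smaller library). Of these, 5 had at least 2-fold more transcript in the allograft library and 9 less. Over all 8551 genes compared in the same way, 11.1% were 2-fold higher and 11.3% lower. The counting interval also excluded equal levels for 5 and 7 of the Wnt genes, and for 9.53% and 7.82% of all genes. The median log2 ratio was 0.13 for the Wnt genes and 0.06 for all genes, so the genes stood out by the size of single ratios in both directions and not by a common shift. Ratios were taken with 0.5 UMI added to each sum, and median-of-ratios scaling lowered every log2 ratio of this class by 0.11.

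Sfrp2 (ENSMUSG00000027996, chromosome 3, 83766321 to 83774316) encodes a ligand-binding inhibitor that is typical of fibroblasts. It stood at 962 CPM (870.1 to 1061) in the 31 allograft cells and at 65.3 CPM (60.4 to 70.5) in the 928 native cells, 14.7-fold higher (13.0 to 16.7). At least 1 UMI was found in 25 of 31 allograft cells (80.6%, 62.5 to 92.5) and 249 of 928 native cells (26.8%, 24.0 to 29.8). With each cell thinned to 1500 UMIs the shares were 43.3% and 6.89%. Lymphocytes, which should lack the gene, had it in 0.318% of allograft and 0.394% of native cells, at median depths of 3897 and 3959.5 UMIs against 12325 and 11153.5 in mesenchymal cells.

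Sfrp1 (ENSMUSG00000031548, chromosome 8, 23411502 to 23449632) encodes a related inhibitor. It had 324 CPM (272 to 383) in allograft and 11.1 CPM (9.16 to 13.4) in native mesenchymal cells, 29.1-fold higher (22.5 to 37.7), with transcripts in 71.0% and 6.68% of cells (43.3% and 1.42% thinned). Sfrp4 (ENSMUSG00000021319, chromosome 13, 19623104 to 19632994) had 415 CPM (355 to 482) and 10.6 CPM (8.71 to 12.8), 39.0-fold higher (30.5 to 50.2), in 48.4% and 2.16% of cells (36.7% and 0.546% thinned). Of the 31 allograft cells, 7 had transcripts of all 3 inhibitors and 1 had none. Lymphocytes had Sfrp1 in 0.318% and 0.394% of cells and Sfrp4 in 0 of 628 and 0 of 254. Single cells weighed on Sfrp4, whose fullest allograft cell held 86 of 173 UMIs. Its ratio was 19.7 without that cell.

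The Dickkopf genes ran the other way. Dkk2 (ENSMUSG00000028031, chromosome 3, 132085292 to 132180304), whose product binds Lrp5 and Lrp6, had 9.60 CPM (2.61 to 24.6), from 4 UMIs, in allograft and 161 CPM (154 to 169) in native cells, 14.95-fold lower (6.56 to 61.8). It was found in 2 of 31 allograft cells (6.45%, and 0 of 30 thinned) and 501 of 928 native cells (54.0%, 19.1% thinned), and in 0 of 628 and 1 of 254 lymphocytes. Dkk3 (ENSMUSG00000030772, chromosome 7, 112116017 to 112159057), a divergent family member, had 115 CPM (84.9 to 153) and 345 CPM (334 to 357), 2.97-fold lower (2.26 to 4.07). Most cells of both libraries still held it, 61.3% and 88.9% (10.0% and 39.6% thinned), beside 0.796% and 3.15% of lymphocytes.

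Wif1 (ENSMUSG00000020218, chromosome 10, 121033960 to 121100650), an inhibitor that binds ligands through its own domain, had 12.0 and 68.2 CPM, 5.17-fold lower (2.42 to 17.6). Its 5 allograft UMIs all lay in 1 cell, against 177 native cells with a UMI. Frzb, a further Sfrp-type inhibitor, had 0 UMIs against 1.39 CPM, and Sfrp5 had 0 UMIs in both.

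**Figure D2:**
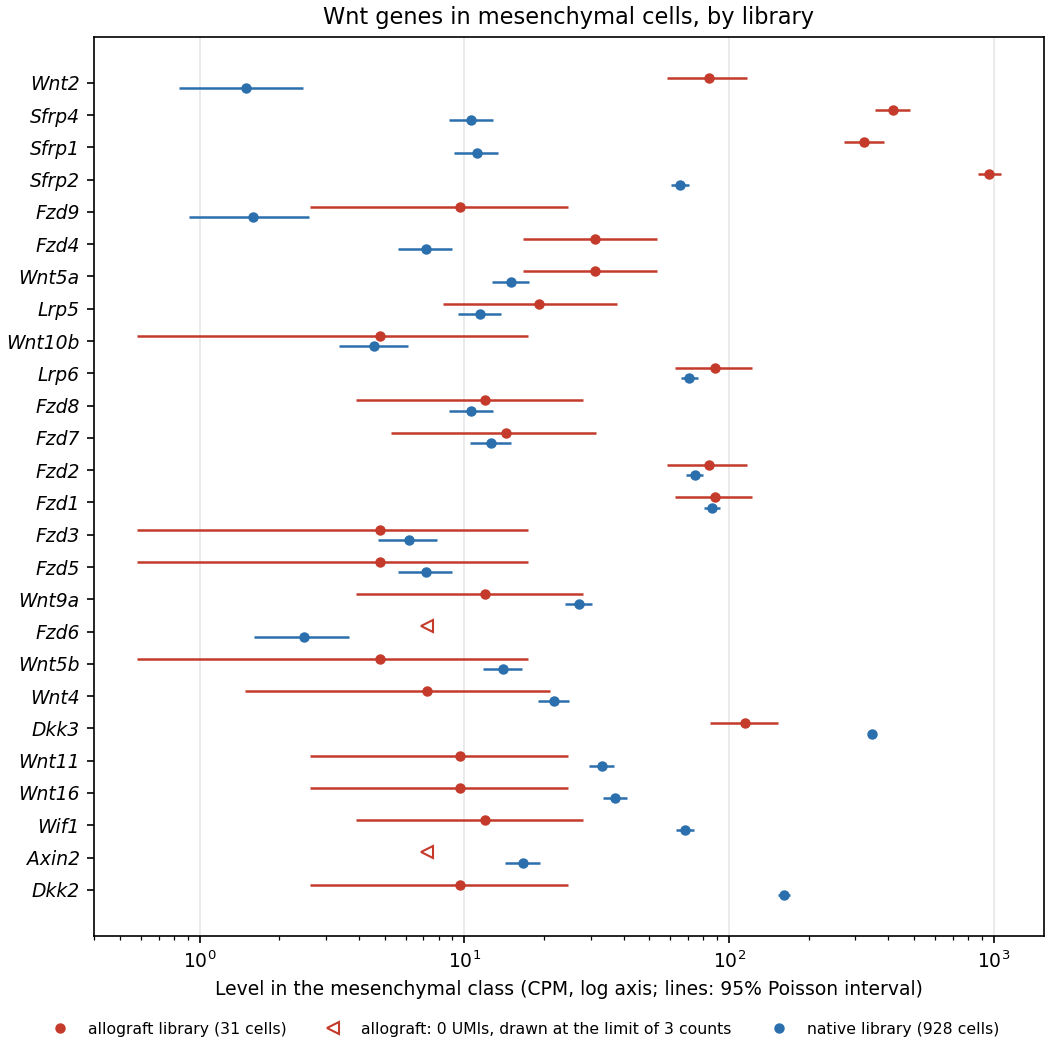
Level in mesenchymal cells (CPM, log axis) of the 26 Wnt genes with 20 or more UMIs summed over the 2 tracheal libraries, sorted by the allograft-to-native ratio; points are sums over 31 allograft (red) and 928 native (blue) cells and lines are 95% Poisson intervals. Wnt2, Sfrp4, Sfrp1 and Sfrp2 lie far to the right in the allograft library and Dkk2 lies far to the left of its native value, while Fzd1, Fzd2 and Lrp6 overlap; open triangles mark 0 UMIs, drawn at the limit of 3 counts.

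**Figure D3:**
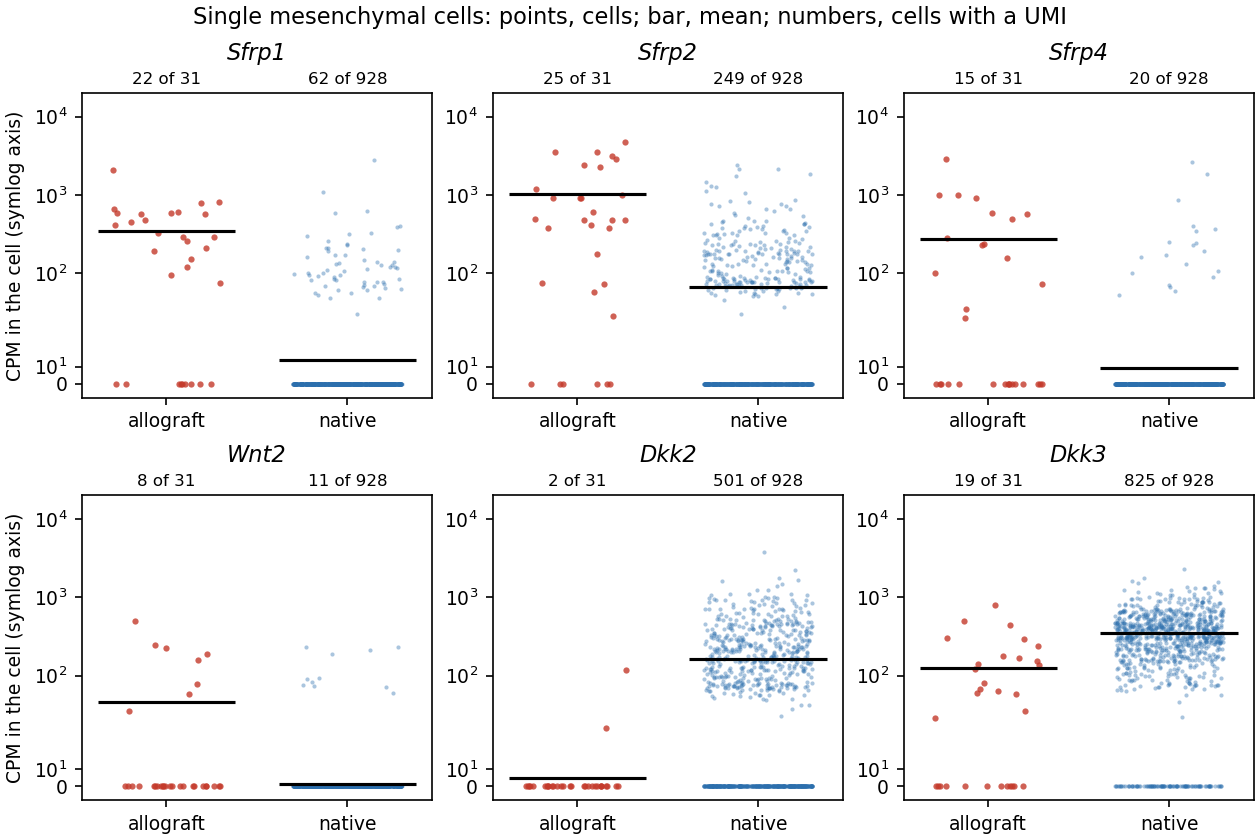
CPM in each mesenchymal cell (points, symmetrical log axis) for 6 genes in the allograft (31 cells) and native (928 cells) libraries; the bar is the mean over cells and the numbers above count cells with a UMI. Sfrp1, Sfrp2, Sfrp4 and Wnt2 were in 22, 25, 15 and 8 of 31 allograft cells, and Dkk2 was in 2 against 501 of 928 native cells.

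Among the ligands, Wnt2 (ENSMUSG00000010797, chromosome 6, 17988940 to 18030585), a ligand of lung mesenchyme that acts through beta-catenin, had 84.0 CPM (58.5 to 117) in allograft cells and 1.49 CPM (0.834 to 2.46) in native cells. That is 55.3-fold higher (29.98 to 111), from 35 UMIs in 8 cells and 15 UMIs in 11 cells, below the minimum for counting it among the genes compared. Wnt5a, which mostly signals without beta-catenin, had 31.2 and 15.003 CPM (2.15-fold higher, 1.08 to 3.66). The other 5 ligands with enough UMIs were lower in the allograft library. Wnt16 had 9.60 against 37.1 CPM (3.44-fold lower, 1.497 to 14.2) and Wnt11 9.60 against 33.1 CPM (3.07-fold, 1.33 to 12.7). Wnt4 had 3 UMIs, 7.20 against 21.8 CPM (2.60-fold, 1.02 to 14.8). The intervals of Wnt5b (2.34-fold, 0.793 to 24.4) and Wnt9a (2.05-fold, 0.954 to 6.99) included no difference.

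Receptors differed little. Fzd1 stood at 88.8 and 86.1 CPM (ratio 1.04, 0.721 to 1.43), Fzd2 at 84.0 and 74.1 CPM (1.15, 0.783 to 1.59) and the co-receptor Lrp6 at 88.8 and 70.7 CPM (1.27, 0.876 to 1.75). These intervals leave room for differences under 2-fold but not for those seen among the inhibitors. Fzd7 and Fzd8 had ratios of 1.23 and 1.24, and Lrp5 one of 1.78 (0.708 to 3.42). Fzd4, a receptor for Wnt ligands and for norrin, was the exception, with 31.2 and 7.15 CPM (4.50-fold higher, 2.21 to 7.93). Fzd3, Fzd5, Fzd6, Fzd9, Fzd10, Wnt6 and Wnt10b had too few UMIs to compare, all under 10 CPM in both libraries.

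Axin2 (ENSMUSG00000000142, chromosome 11, 108920349 to 108950783), which encodes a scaffold that degrades beta-catenin and is itself induced by beta-catenin, had 0 UMIs in allograft and 16.6 CPM (14.2 to 19.3) in native mesenchymal cells. The allograft level was at least 2.31-fold lower. No UMI was found in 31 allograft cells, which allows a share of cells with a UMI of up to 9.68% (3 of 31) and sets no limit on cells that express the gene, and 137 of 928 native cells had 1 or more (14.8%, 2.51% thinned). At the thinned depth the gene lay near the level of 1 UMI, so no order is read from these shares.

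Of 52 other genes of the pathway, 42 could be compared in these cells, 7 were 2-fold higher and 11 lower in the allograft library, and their median log2 ratio was 0.18. Highest were Rspo3, a secreted amplifier of Wnt signals (40.8 against 9.04 CPM, 4.62-fold, 2.52 to 7.63), its receptor Lgr4 (24.0 against 6.76 CPM, 3.70-fold, 1.63 to 6.94) and the adhesion receptor Cd44 (835 against 266 CPM, 3.14-fold, 2.80 to 3.51). Lowest were Nkd2, an intracellular antagonist (0 against 43.3 CPM, at least 6.02-fold lower), Tnfrsf19, a beta-catenin target (1 UMI or 2.40 CPM against 75.3 CPM, 20.9-fold, 5.62 to 1242), and Rspo1 (0 against 21.9 CPM, at least 3.04-fold lower). R-spondin genes thus lay at both ends. Ctnnb1, the beta-catenin gene, had 213 and 166 CPM.

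Several other measures moved with these differences. The summed fibroblast markers stood at 68370 CPM in allograft and 22166 CPM in native mesenchymal cells (10 of 10 detected in both), and the lung-type markers at 9.60 and 2046 CPM, with Inmt, Ces1d, Npnt, Tcf21, Gria1 and Col13a1 at 0 in the allograft cells. Chondrocyte markers stood at 705 and 71.1 CPM (11 of 13 in both) and macrophage markers at 228 and 278 CPM (9 of 9 in both). Their part in the result was not tested. Of the 31 allograft cells, 28 held Xist, the transcript of the inactive X chromosome in female cells, and 1 held a UMI of 4 Y-linked genes. Of the 928 native cells, 896 held Xist and 0 a Y-linked UMI. The 27 allograft cells with Xist and no Y-linked UMI carried 128 of 135 Sfrp1, 392 of 401 Sfrp2, 155 of 173 Sfrp4 and 34 of 35 Wnt2 UMIs. They carried 0 of 5 Wif1 and 0 of 4 Fzd9 UMIs, and the other 4 cells held the rest.

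Clustered again on their own, mesenchymal and chondrocyte cells fell into 8 sub-clusters, again without the Wnt genes. Sub-clusters 0, 1 and 2 (195, 193 and 172 cells, all native, led by Heyl, Dner and Gdnf) carried the lung-type markers. Sub-cluster 3 (157 native cells) and sub-cluster 7 (28 allograft cells) carried adventitial fibroblast markers, all 7 detected in both, at 2841 and 2974 CPM in sum. Cd248, Ackr3 and Ly6c1 were raised in both, Pi16 in sub-cluster 3 only, and Dpp4 and Anxa3 in sub-cluster 7 only. Their leading genes differed, with Ebf2 and Scara5 in sub-cluster 3 and Saa3 and Lrrc15 in sub-cluster 7. Sub-cluster 4 (147 native cells and 1 allograft cell) had smooth muscle or pericyte markers, 5 (69 allograft and 38 native cells) chondrocyte markers, and 6 (40 native cells and 1 allograft cell) was led by Tnmd, Scx and Thbs4, genes of tendon. Apart from sub-cluster 5, no sub-cluster held more than 1 allograft cell beside native ones, so library and sub-cluster cannot be told apart for the fibroblasts.

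Native inhibitors were divided among these sub-clusters. Sfrp4 was at 59.5 CPM in adventitial sub-cluster 3 and at 0 UMIs in sub-clusters 0, 1, 2 and 4. Sfrp1 also had its highest native level there, 36.0 CPM. Sfrp2 was lowest there (11.8 CPM) and highest in sub-cluster 6 (448 CPM, in 14 of 40 cells). Wif1 had 323 CPM in sub-cluster 4 and 378 CPM in sub-cluster 6 against 8.31 CPM in sub-cluster 2. Dkk2 and Dkk3 were found in every native sub-cluster, from 48.9 to 219.9 CPM and from 232 to 444 CPM, both lowest in sub-cluster 6 and highest in sub-cluster 0. The allograft values of 10.1 and 117 CPM in sub-cluster 7 lay below all of these.

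Ligands and receptors were divided too. Wnt16 stood at 241 CPM in smooth muscle sub-cluster 4 and at 0 UMIs in sub-cluster 6, and Wnt5a was also highest in sub-cluster 4 (35.9 CPM). Wnt4 (32.8 CPM) and Wnt11 (45.5 CPM) were highest in lung-type sub-cluster 2, and Wnt9a in adventitial sub-cluster 3 (37.8 CPM). Lrp6 ranged from 50.5 CPM in sub-cluster 1 to 183 CPM in sub-cluster 6, where Lrp5 (46.3 CPM) and Fzd8 (30.9 CPM) also peaked. Fzd4 was highest in sub-cluster 3 (21.7 CPM), and Axin2 ranged from 3.50 CPM in sub-cluster 2 to 34.1 CPM in sub-cluster 0.

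**Figure D4:**
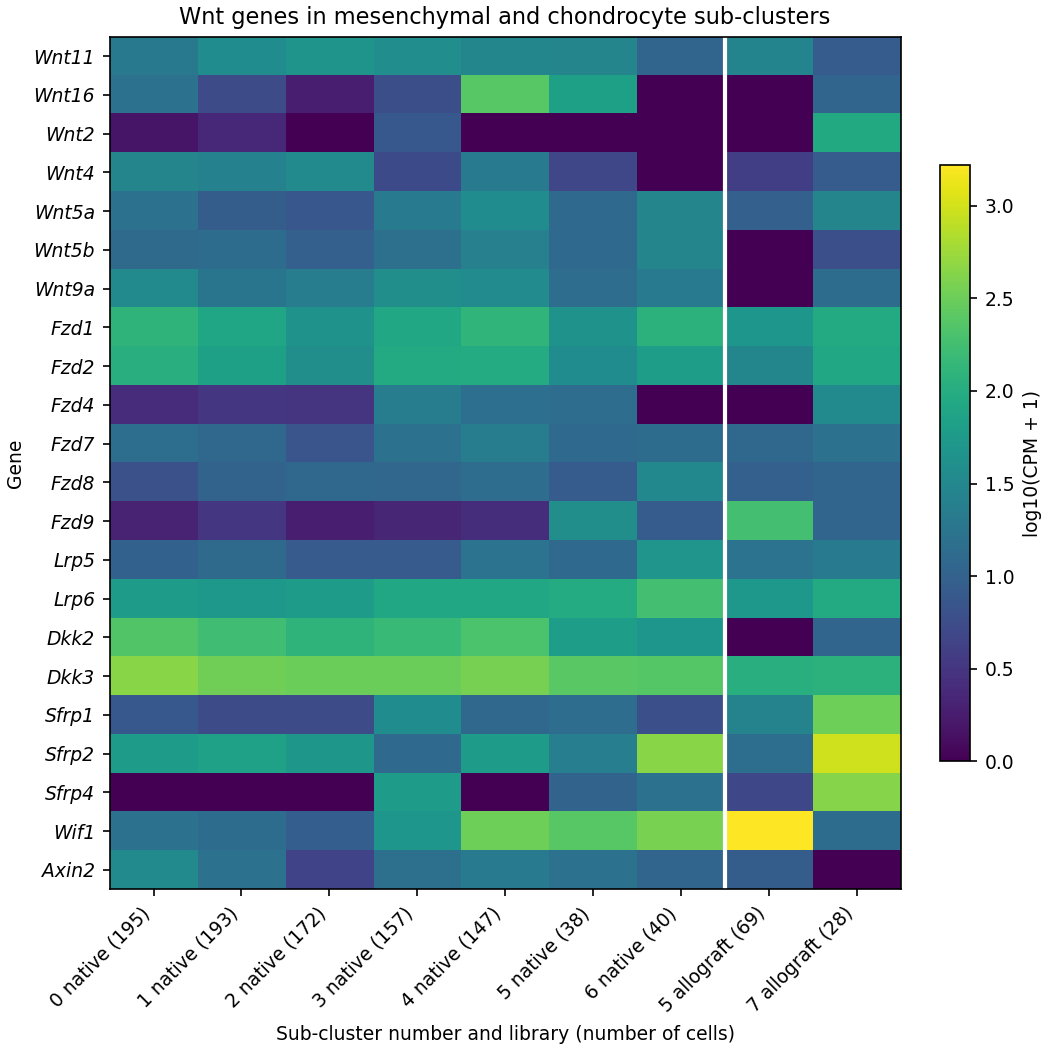
Wnt genes that reached 20 CPM in a sub-cluster (rows) across mesenchymal and chondrocyte sub-clusters (columns, native left of the white line, allograft right of it, number of cells in brackets), as log10(CPM + 1). Allograft sub-cluster 7 is bright for Sfrp1, Sfrp2, Sfrp4 and Wnt2; native sub-cluster 4 for Wif1 and Wnt16; Dkk2 and Dkk3 are bright in all native columns.

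Compared only between the adventitial sub-clusters, 28 allograft and 157 native cells, the inhibitors kept their directions. Sfrp2 stood at 984 against 11.8 CPM (81.5-fold higher, 52.8 to 140), Sfrp1 at 325 against 36.0 CPM (8.98-fold, 6.57 to 12.5), Sfrp4 at 434 against 59.5 CPM (7.27-fold, 5.64 to 9.45) and Wnt2 at 88.7 against 6.82 CPM (12.6-fold, 6.46 to 28.4). Dkk2 was 13.4-fold lower (10.1 against 153 CPM), Dkk3 2.69-fold lower (117 against 317 CPM) and Wif1 3.45-fold lower (12.7 against 47.7 CPM). Of 19 Wnt genes with enough UMIs there, 5 were 2-fold higher and 7 lower, beside 10.9% and 10.6% of all 7874 genes compared. Leaving out only the lung-type sub-clusters (31 against 368 cells), 4 of 22 were higher and 8 lower, beside 9.54% and 11.8% of all 8914 genes. Between the adventitial sub-clusters Wnt16 and Wnt4 turned direction, with ratios of 2.17 and 1.91, and Fzd4 and Wnt5a had ratios of 1.56 and 1.40. The ratio of Sfrp2 was larger, and those of Sfrp1, Sfrp4 and Wnt2 smaller, between these sub-clusters than between all mesenchymal cells. Axin2 was again at 0 UMIs against 14.3 CPM.

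The chondrocyte class, with 68 allograft and only 14 native cells, was set apart by Wif1 and Fzd9. Sub-cluster 5, also with chondrocyte markers, held 38 native cells, and native Fzd9 stood at 38.2 CPM there. Native Wif1 was higher in sub-clusters 6 and 4 (378 and 323 CPM) than in sub-cluster 5. The native levels and ratios below therefore hold for the 14 cells of the class and depend on which cells are counted as chondrocytes. Wif1 stood at 1690.2 CPM (1611 to 1773) in 68 allograft cells and 1154 CPM (963 to 1372) in 14 native cells, a ratio of 1.46 (1.22 to 1.77). It was found in 60 of 68 (88.2%, 64.7% thinned) and 11 of 14 cells (78.6%, 57.1% thinned), against 0.159% of allograft and 0.394% of native lymphocytes. Of its 128 native UMIs, 67 lay in 1 cell, and without that cell the native level was 594 CPM and the ratio 2.82 (2.20 to 3.74), so 1 cell decides whether Wif1 is past 2-fold. Fzd9 (ENSMUSG00000049551, chromosome 5, 135248938 to 135251230), a receptor of bone and brain, had 183 and 180.4 CPM (ratio 0.993, 0.639 to 1.70), in 36 of 68 and 6 of 14 cells. Of its 20 native UMIs, 10 lay in 1 cell, and without it the ratio was 1.796 (0.9997 to 3.99). Dkk3 had 108 and 144 CPM (0.726, 0.439 to 1.35), Lrp6 51.8 and 63.1 CPM (0.773) and Fzd1 49.8 and 45.1 CPM (1.01). These were the 5 Wnt genes with enough UMIs, and 0 were past 2-fold in either direction, where 14.8% of all 4631 genes compared were higher and 7.6% lower (7.26% and 5.38% with an interval that excludes equal levels). Median-of-ratios scaling raised every log2 ratio of this class by 0.47 and put Wif1 at 2.02-fold. Frzb, first found in cartilage, had 12 UMIs in 5 allograft cells and 0 in native ones, and Wnt7b had 7 UMIs, or 63.1 CPM, in native chondrocytes.

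Of the other pathway genes, 20 could be compared in chondrocytes, 7 were 2-fold higher in the allograft library and 0 lower. Highest were the cell cycle gene Ccnd1 (133 against 0 CPM, at least 4.93-fold), the R-spondin receptor Lgr6 (59.7 against 0 CPM, at least 2.21-fold) and Tcf7l2 (45.8 against 9.02 CPM from 1 UMI, 3.42-fold, 0.867 to 205). Cartilage markers stood at 16925 CPM in allograft (13 of 13) and 9432.5 CPM in native cells (12 of 13), macrophage markers at 1536 and 902 CPM, and fibroblast markers at 6384 and 11074 CPM. Their part was not tested. Y-linked transcripts were in 57 of 68 allograft chondrocytes and 0 of 14 native ones, all of which held Xist, so Y-linked transcripts and library cannot be told apart here. Xist was also in 25 of the 68 allograft chondrocytes, and 22 of these held a Y-linked UMI as well. A Xist UMI in a cell is therefore no sure mark of a female cell. The 3 allograft chondrocytes with Xist and no Y-linked UMI held 42 of the 1698 Wif1 UMIs and 1 of the 184 Fzd9 UMIs.

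In phagocytes of the trachea, Wnt genes were sparse. The class leaves out unnamed cluster 9 (419 allograft and 6 native cells), whose leading genes include Mmp12, Gpnmb and Spp1. Its cells enter none of the phagocyte levels and ratios given here. Lrp6 led in both libraries, followed by Lrp5, and the ligands stayed under 10 CPM. Of 13 genes with enough UMIs, 4 were 2-fold higher in the allograft library and 2 lower, where 6.26% of all 11804 genes compared were higher and 8.49% lower. All 6 had intervals that exclude equal levels, as did 5.9% and 8.16% of all genes. The median log2 ratio was 0.09, and 0.04 over all genes. Fzd1 had 9.29 CPM (7.68 to 11.1) in 1803 allograft and 1.04 CPM (0.497 to 1.91) in 1563 native phagocytes, 8.57-fold higher (4.70 to 19.2). It was found in 4.99% and 0.640% of cells (1.34% and 0.132% thinned), against 2 of 628 and 2 of 254 lymphocytes, and stood at 2.06 CPM, from 3 UMIs, in spleen phagocytes. Wnt6 had 1.92 and 0.726 CPM (2.52-fold, 1.11 to 7.28).

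Lrp6 (ENSMUSG00000030201, chromosome 6, 134446476 to 134566965) had 36.8 CPM (33.5 to 40.3) and 77.7 CPM (72.2 to 83.4), 2.11-fold lower (1.88 to 2.38), in 19.97% and 32.6% of cells (5.84% and 12.5% thinned). The clusters of the class differed between the libraries, and their part in the Lrp6 difference was not tested. Allograft phagocytes lay mostly in macrophage cluster 1 (1619 of 1803, led by Arg1, Ccl8 and Nos2) and native ones in macrophage cluster 2 (1439 of 1563, led by Vsig4, Cd209g and Lyve1). Within cluster 1 Lrp6 had 35.6 and 30.4 CPM (ratio 1.15, 0.770 to 1.87) and within cluster 2 57.3 and 82.3 CPM (0.705, 0.484 to 0.973). For Fzd1 within cluster 1, 9.66 CPM stood against 2.64 CPM from 2 native UMIs (2.94-fold, 0.990 to 30.6).

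The other 3 differences in phagocytes concerned inhibitors at very low levels. Sfrp2 had 2.16 and 0.415 CPM (4.72-fold higher, 1.82 to 20.5), Sfrp1 1.60 and 0.518 CPM (2.88-fold, 1.12 to 10.5) and Dkk3 0.320 and 2.39 CPM (6.76-fold lower, 2.54 to 29.6). They ran in the same directions as in mesenchymal cells. Sfrp2 was in 1.28% and 0.256% of phagocytes against 0.318% and 0.394% of lymphocytes, at median depths of 6366 and 5942 UMIs, and Dkk3 in 0.222% and 1.47% against 0.796% and 3.15%. The shares of Dkk3 in both libraries, and the native share of Sfrp2, lay below those of lymphocytes and are read as background. The native levels of Sfrp2 and Sfrp1 rest on 4 and 5 UMIs. Fibroblast markers in these phagocytes summed to 76.3 and 177 CPM (10 of 10 in both). Their part was not tested. Of the other pathway genes, 27 could be compared, 0 were 2-fold higher and 5 lower, lowest Ryk, an alternative Wnt receptor (1.76 against 17.3 CPM, 9.64-fold lower), Tpbg (6.48-fold) and Tle2 (3.22-fold).

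Spleen phagocytes differed from the tracheal ones by Wnt6 (ENSMUSG00000033227, chromosome 1, 74771892 to 74785322), a ligand best known from epithelia. It had 139 CPM (120.2 to 159) in 413 spleen phagocytes. All 202 of these UMIs lay in cluster 8 (407 spleen cells, led by S1pr5, Tgm3 and Ace, with the non-classical monocyte gene Treml4), where 134 cells held it (32.9%, 20.3% thinned), against 2 of 3440 spleen lymphocytes. Unnamed cluster 21 (49 spleen cells with genes of both B cells and monocytes) had 50.4 CPM, and spleen neutrophils 6.32 CPM. Cluster 8 also held Fzd7 at 25.0 CPM, Lrp5 at 20.2 CPM and Fzd4 at 11.8 CPM. Library and cluster cannot be told apart here, since 18 native and 17 allograft cells were in this cluster.

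Dendritic cells, a class added after the data were seen, held most of the Wnt11 of the trachea. Wnt11 (ENSMUSG00000015957, chromosome 7, 98835112 to 98855195), a ligand that mainly acts without beta-catenin, had 57.7 CPM (49.6 to 66.7) in 286 allograft and 178 CPM (167 to 189) in 604 native dendritic cells, 3.08-fold lower (2.63 to 3.63). It was in 31.8% and 58.3% of cells (8.54% and 21.6% thinned), against 0.478% and 2.36% of lymphocytes, and had 2.27 CPM, from 4 UMIs, in 302 spleen dendritic cells. The 3 values were well apart from each other. All 302 spleen cells lay in dendritic cluster 10, which held 19 allograft and 9 native cells, so spleen and dendritic cluster cannot be told apart. Within cluster 6 alone (267 and 595 cells, led by Cd209a and Upb1, with no spleen cell) Wnt11 had 53.7 and 178 CPM, 3.31-fold lower. The co-receptor Lrp5 had 7.60 and 2.63 CPM (2.86-fold higher, 1.47 to 5.82). Of 7 Wnt genes with enough UMIs these were the 1 higher and 1 lower, where 10.8% of all 10100 genes compared were higher and 3.88% lower (9.86% and 3.29% with an interval that excludes equal levels). The medians were -0.20 for the Wnt genes and 0.30 for all genes, and median-of-ratios scaling lowered every log2 ratio of this class by 0.29.

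In lymphocytes 3 Wnt genes could be compared. Lrp6 had 34.8 and 28.7 CPM (ratio 1.21, 0.843 to 1.77). Axin2 had 14.3 CPM (10.2 to 19.4) in 628 allograft and 6.52 CPM (3.13 to 12.0) in 254 native lymphocytes, 2.11-fold higher (1.08 to 4.90), and 5.29 CPM (4.34 to 6.40) in 3440 spleen lymphocytes. It was in 5.57%, 3.54% and 2.85% of cells, and in 1.66%, 1.61% and 1.0% thinned, which is too near the level of 1 UMI to read an order. Fzd5 had 9.05 and 3.91 CPM (2.18-fold, 0.931 to 6.87). So 2 were 2-fold higher and 0 lower, where 11.1% of all 9507 genes compared were higher and 9.33% lower. Only the interval of Axin2 excluded equal levels, with 10.2% and 8.69% of all genes.

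The makeup of the class differed between libraries: natural killer cluster 13 held 172 allograft and 3 native cells, and T cell cluster 16, with Rag1 and Dntt, 8 and 92. By cluster, Axin2 stood at 22.7 CPM (14.7 to 33.5) in spleen T cell cluster 11 (led by Il21, with Foxp3 and Pdcd1), at 18.7 CPM in the spleen cells and 23.6 CPM (2 UMIs) in the allograft cells of T cell cluster 5, and at 19.5 CPM in the allograft cells of T cell cluster 7. The 51 native cells of cluster 7 had 8.05 CPM from 2 UMIs (0.975 to 29.1). These intervals overlap. Wnt10a stood at 9.36 CPM in cluster 12 of the spleen (24 of 282 cells, B cells with Jchain). Wnt3 had 8 UMIs in cluster 11, and Wnt8b, otherwise nearly undetected, had 9 of its 13 UMIs in the native cells of cluster 16.

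Of the other pathway genes, 27 could be compared in lymphocytes, with 5 higher and 7 lower. Highest were Wisp1 (11.1 CPM against 0.652 CPM from 1 UMI, 11.6-fold, 2.85 to 696), the beta-catenin co-factor Bcl9l (44.9 against 11.1 CPM, 3.95-fold) and Rnf43, which removes Frizzled receptors (3.74-fold). Lowest were 3 transcription factors of the pathway, Tcf7l2 (3.13 against 46.9 CPM, 14.3-fold lower), Lef1 (47.3 against 153 CPM, 3.23-fold) and Tcf7 (105 against 332 CPM, 3.17-fold). Tcf7 and Lef1 are also genes of naive and immature T cells, and the class makeup above moved with them. Its part was not tested.

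Small native classes held further Wnt genes. Cluster 20, with 66 native cells, was named for Schwann markers, but when split only 38 of its cells carried them, and the other 28 were led by Spp1, Chil3 and Ear2. In the 38 Schwann-like cells Sfrp1 had 1449.7 CPM (1287 to 1628, in 34 cells), Sfrp5, a close relative, 289 CPM (219 to 374, in 20 cells) and Wnt6 132 CPM from 26 UMIs. The other 28 cells had Sfrp1 at 26.5 and Sfrp5 at 29.8 CPM. Cluster 20 as a whole held 66 of the 68 Sfrp5 UMIs of the library. In 29 epithelial cells Wnt4 had 243 CPM (202 to 289.6), in 15 cells, and Wnt7b 21.4 CPM. In 27 endothelial cells Lrp5 had 55.1 CPM from 10 UMIs and Fzd6 33.1 CPM from 6. The allograft library had 0 cells in cluster 20 and 0 in the epithelial class, and its 6 endothelial cells were too few for a level.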

How the data were processed

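The deposited values were raw UMI counts per gene and barcode from 10x 3′ libraries (chemistry version 3), made with Cell Ranger 3.1.0 per the file headers, on mm10 per the submitters' processing notes. The annotation release and the counting of intronic reads were not given in the sources used here. All 31053 genes had names in the files, and positions are those of GENCODE M21 on GRCm38. Each source was 1 library of 4611 (allograft), 4626 (native) or 4856 (spleen) barcodes with 26503045, 31415458 and 28318436 UMIs.

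Cells needed at least 500 genes and at most 20% mitochondrial UMIs. Doublets were called per library with scrublet and removed. The caller marked 31, 43 and 9 barcodes (0.672%, 0.930% and 0.185%) beside loading-based rates of 3.69%, 3.70% and 3.88%, so doublets may remain among the cells. Log-transformed counts per 10000 UMIs of 2000 variable genes, without the Wnt genes, gave 30 principal components, 15 neighbours and 26 Leiden clusters (resolution 0.5), named from fixed marker lists. Clusters 3, 9, 21 and 25 stayed unnamed and enter no class. Clusters 9 and 25 raised too few markers. Cluster 3 (604 allograft, 572 native and 6 spleen cells) raised 7 neutrophil markers. It was left unnamed for low UMI counts and no neutrophil marker among its 10 leading genes. Cluster 21 raised 6 B cell markers, but its leading genes held more markers of another class. Software was Python 3.11.15, scanpy 1.11.5, anndata 0.12.19, leidenalg 0.10.2, igraph 0.11.9, scikit-learn 1.9.0, numpy 2.4.6, scipy 1.17.1, pandas 2.3.3 and matplotlib 3.10.9.

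UMIs were summed per class and library and given as CPM with exact Poisson 95% intervals. Shares of cells carry Clopper-Pearson intervals (a share of 0 is given with the limit of 3 cells), also at a common depth of 1500 UMIs drawn per cell, without the 350, 186 and 141 shallower cells of the libraries. Ratios carry exact conditional binomial intervals, and where a library had 0 UMIs the fold is a bound taken at 3 counts. No p-value was computed. The procedure was checked on simulated data. Every one of the 42 genes is accounted for. Those described in full were 2-fold or more apart with an interval excluding 1 and 20 or more UMIs, or among the 5 highest of a class. Of 52 other pathway genes, those with the 3 highest and 3 lowest ratios are named. Wisp1 is the files' symbol for Ccn4. The members and lists were chosen with earlier results of these data known. The dendritic class, the single clusters and fullest cells, the adventitial sub-clusters and the X- and Y-linked transcripts were looked at after the data were seen. Alternatives were other cell filters, doublets kept, other scalings, per-cell means, other clusterings and other minimums. RefSeq promoter entries existed for 28 of the 42 genes, with none for Sfrp1, Sfrp4 and Dkk3.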

Additional observations from a re-analysis of the deposited data

How the results depend on the processing

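No paired analysis was possible because each source is deposited as 1 library, and no replicate could be left out. Allograft mesenchymal cells numbered 31. The stricter cell filter (1000 genes, 10% mitochondrial UMIs) gave no mesenchymal or chondrocyte comparison, since those cells fell in an unnamed mixed cluster. Of the ratios of single Wnt genes under all alternatives, 244 of mesenchymal cells stayed inside the counting interval of the reported ratio, 13 moved outside it and 3 reversed. In phagocytes 140 stayed, 15 moved and 1 reversed, in chondrocytes 59 stayed and 7 moved, in dendritic cells 61 stayed and 2 moved, and in lymphocytes all 27 stayed. Reversed were Fzd9 in mesenchymal cells without its fullest cell (ratio 0.732, against 6.58), Wnt16 and Wnt4 between adventitial sub-clusters (2.17 and 1.91, against 0.291 and 0.385) and Lrp6 within macrophage cluster 1 (1.15, against 0.473). The cause was not tested, except that the first rests on 1 cell. Sfrp4 was 30.4-fold higher by the mean of per-cell CPM. Without lung-type sub-clusters the mesenchymal ratios were 12.6 for Sfrp2, 14.8 for Sfrp1 and 14.0 for Sfrp4, and Dkk2 was 13.9-fold lower. Counts of genes 2-fold apart in mesenchymal cells ranged from 4 to 5 higher and from 7 to 9 lower, and moved by over 1.5 times in 3 other classes. In chondrocytes 2 were lower with no cell filter and 2 higher with median-of-ratios scaling, both from 0. In phagocytes 1 was lower (from 2) by the per-cell mean, with 50 UMIs or in cluster 1 only, and 0 in cluster 2 only, while 1 was higher (from 4) with 50 UMIs or in cluster 2 only. In lymphocytes 2 were lower (from 0) with no filter, doublets kept or Leiden resolution 1.0. There, 1 was higher (from 2) with the stricter filter, totals without mitochondrial and ribosomal genes, 50 UMIs, the interval rule or no fullest cell, and 0 by the per-cell mean. Fewer genes passed with 50 UMIs by construction. For the others the cause was not tested.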
